A study of Mus musculus with 4 samples.

Results

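The forkhead genes Foxa1, Foxa2, Foxq1 and Foxd3 were followed in extraembryonic endoderm (XEN) cells and embryonic stem (ES) cells of the mouse. They were taken as every probe set annotated to exactly 1 of these symbols, which gave 4 probe sets, 1 for each gene, among 12488 on the Affymetrix MG_U74Av2 array. XEN cells are self-renewing lines that stand for primitive endoderm, the source of parietal and visceral yolk sac endoderm. ES cells are pluripotent lines that come from the inner cell mass of the blastocyst. Total RNA of 4 cultures was hybridised, 1 array each. The XEN group held 3 cultures of 2 lines. IM8A1-I and IM8A1-II were the IM8A1 line (PO strain) at passage 27, IM8A1-I on gelatin in 70% EMFI-CM and IM8A1-II on tissue culture plastic in RPMI 1640 with 20% FBS for 4 days. XEN1-3 (ICR strain, passage 18) was, like IM8A1-I, on gelatin in 70% EMFI-CM. The ES group was 1 culture of the R1 line, undifferentiated, on gelatin with LIF. No transgene, deletion or drug is named for any of the cultures.

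Forkhead proteins bind DNA through a shared winged-helix domain. Foxa1 and Foxa2 (HNF3 alpha and beta) belong to a subfamily that can open compacted chromatin and that acts early in endoderm. Foxa2 is needed for the node, notochord and floor plate, and in the visceral endoderm for normal gastrulation of the mouse embryo. Foxd3 (Genesis) maintains the pluripotent cells of the mouse epiblast and ES cells in culture, and later marks the neural crest. Foxq1 (HFH-1) is the gene of the satin coat mutation of the mouse and is expressed in several epithelia.

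Signal is in arbitrary units, on a linear scale that had been brought to a common level between arrays, and it was compared between arrays for 1 probe set at a time. A background limit of 27.2 units was set at the 40th percentile of all values. It is not a detection call. Foreign-sequence controls were the bacterial or yeast ones named Dap, Lys, Phe, Thr, Trpn or YEL (19 probe sets, 76 values). All were under the limit, with the highest at 19.6 and a median of 4.3 units. Other control probe sets were not used for this. The XEN arrays correlated with each other at r of 0.928 to 0.954 and with the ES array at 0.773 to 0.784, over probe sets, which are not independent replicates. All 6 ES cell markers were lower and all 10 endoderm markers (among them Pdgfra, Lama1 and Sparc) higher in the XEN cultures, as their labels say. Over all 6345 tested genes, 5.74% were called higher and 5.23% lower in the same comparison. When values under the limit were raised to it, 7 of the 10 endoderm markers were called higher. The ES array came from another chip lot than the XEN arrays and was run on another day, so the lot and the cell type cannot be told apart. The run record of XEN1-3 holds a message that fluid was not detected. With 1 ES array, the fit takes its spread to be that of the XEN arrays, and the p-values measure the spread between these 3 cultures of 2 lines.

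Different patterns were seen among the 4 genes. Foxa2 and Foxq1 were bright in every XEN culture and under the limit in ES cells. Foxa1 and Foxd3 were under the limit on all arrays, so that these data show no level above background for them in either cell type. Cell number and RNA per cell cannot be told apart in such bulk samples: a lower signal could be fewer expressing cells or less RNA in each.

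**Figure D1:**
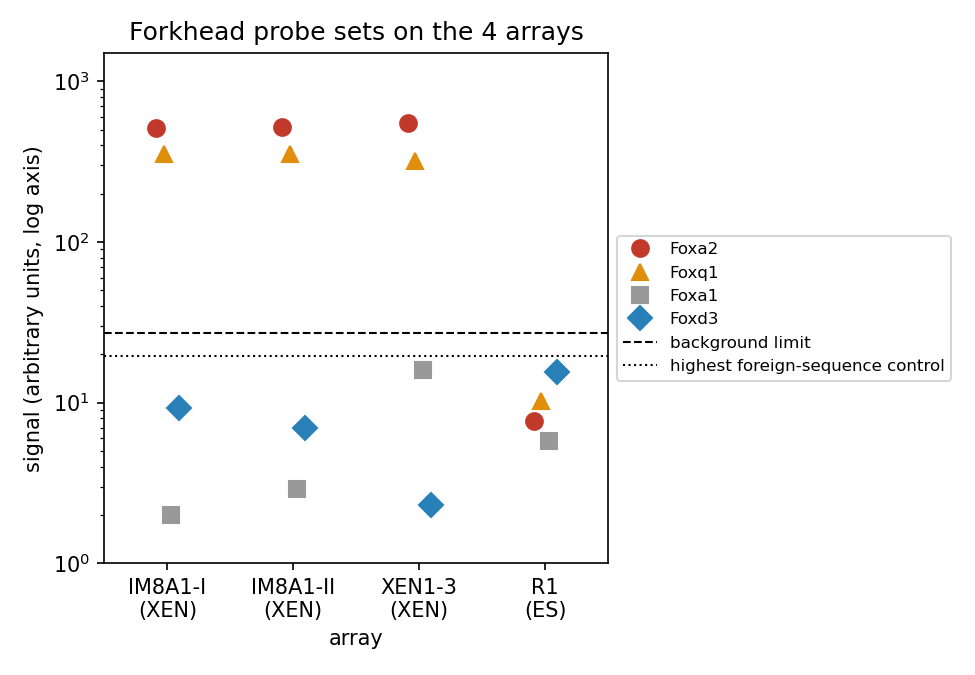
Signal of the 4 forkhead probe sets (vertical axis, arbitrary units, log scale) on the 3 XEN arrays and the ES array (horizontal axis), 1 point per array. The dashed line is the background limit of 27.2 units and the dotted line the highest foreign-sequence control at 19.6. Foxa2 and Foxq1 lie between 320 and 552 units on the XEN arrays and under the limit on the ES array, and Foxa1 and Foxd3 lie under both lines on all arrays.

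Foxa2 (probe set 93950_at, chromosome 2) had 512 and 520.1 units in the 2 IM8A1 cultures and 552 in XEN1-3, against 7.7 units in ES cells. The groups did not overlap, and the 3 XEN values lay close together. The XEN mean was 528 ± 20.9 units (SD, n = 3). XEN was 19.4-fold over the limit, and so at least that far above ES, which lies under it. On the log2(signal + 10.5) scale, which understates changes of dim probe sets, the difference of XEN from ES was 4.89 ± 0.26 (SE), with a 95% interval of 4.24 to 5.53 and a limma adjusted p of 0.00175 over 8587 tested probe sets. The size of that difference depends on the offset: it was 3.34 with an offset at the 50th percentile and 5.80 at the 5th.

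Foxq1 (92658_at, chromosome 13) had 353 units in each IM8A1 culture and 320 in XEN1-3, against 10.3 units in ES cells. All 3 XEN values were again high and the groups were apart. The XEN mean was 342 ± 19.4 units (SD, n = 3). XEN was 12.6-fold over the limit, and so at least that far above ES. The log2 difference was 4.08 ± 0.26 (SE; interval 3.43 to 4.73, limma adjusted p = 0.00221), and 2.71 with an offset at the 50th percentile. Of the 8587 tested probe sets, 5.58% were called higher in XEN and 5.04% lower, and 4.87% had the same arrangement of an ES value under the limit with all 3 XEN values at or over it. Foxa2 and Foxq1 entered the test only through their XEN values, so their calls are given gene by gene and not as a share of the 4.

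Foxa1 (92697_at, chromosome 12) stood at 2 and 2.9 units in the IM8A1 cultures, I and II in that order, and at 15.9 in XEN1-3, against 5.8 units in ES cells. The ES value fell inside the XEN range, and all 4 values were under the highest foreign-sequence control. Foxd3 (92889_r_at, chromosome 4) stood at 9.3 and 7 units in IM8A1-I and -II and at 2.3 in XEN1-3, against 15.6 units in ES cells. The ES value was the highest of the 4 and still under the limit. Neither gene was tested in the filtered table. In a fit with no filter on dim probe sets, 2.60% of 12422 were called higher and 3.15% lower. There Foxa1 differed by 0.01 in log2 (limma adjusted p = 0.993) and Foxd3 by -0.67 (0.264).

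The Foxd3 probe set is of the kind that Affymetrix marks with r, for sets in which some rules of probe selection were dropped. Of 901 such sets 50.3% reached the limit on at least 1 array, against 69.1% of all 12422 probe sets other than controls. Such a set can be bright: the one for Sox2, a core pluripotency factor, had 2.1, 3.1 and 8.2 units in the XEN cultures and 3391 units in ES cells. Whether the Foxd3 probes report the transcript was not tested, and a value under the limit does not show that the transcript is absent.

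Within the XEN group Foxa2 and Foxq1 varied little. The coefficient of variation over the 3 cultures was 3.97% for Foxa2 and 5.68% for Foxq1. The median was 18.4% over the 6823 probe sets at or above the limit on all 3 XEN arrays. That pool was not matched for brightness and holds many dimmer probe sets. Low values were not particular to these genes. Among other forkhead genes, Foxn2 had 3.02%, Foxk2 4.37%, Foxl1 5.63% and Foxo4 5.89%, while Foxa3 had 50.3%. IM8A1-II and IM8A1-I, 1 line under 2 culture conditions, differed by 0.02 in log2 for Foxa2 and by 0.001 for Foxq1. Of the tested probe sets 5.99% were at least 2-fold apart between these 2 arrays. XEN1-3 and IM8A1-I, 2 lines in the same medium, differed by 0.105 for Foxa2 and by -0.14 for Foxq1, where 9.12% were at least 2-fold apart. XEN1-3 and IM8A1-II differed by 0.08 and -0.14, where 9.53% were. The sign of the IM8A1-II difference from IM8A1-I turned under median scaling, to -0.07 for Foxa2 and -0.09 for Foxq1. Each of these is 1 array against 1 array, without a test. Foxa1 was higher in XEN1-3 than in IM8A1-I by 1.08, with both values under the limit, and that difference was 2.22 with an offset at the 5th percentile and 0 with values raised to the limit.

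The promoter windows of Foxa2 and Foxa1 are shown because Foxa2 is bright in XEN cells and Foxa1, of the same subfamily, is not. They are the 250 bases before a transcript start, from RefSeq (GRCm38.p6), written in the direction of transcription. Capitals mark words of transcription factor families searched on both strands.
Foxa2, outermost start, chr2:148046970-148047219, minus strand: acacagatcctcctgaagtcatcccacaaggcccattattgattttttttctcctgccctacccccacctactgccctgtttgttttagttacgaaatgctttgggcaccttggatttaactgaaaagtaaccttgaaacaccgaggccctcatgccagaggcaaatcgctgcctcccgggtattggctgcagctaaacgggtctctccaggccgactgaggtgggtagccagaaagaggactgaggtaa
Foxa2, innermost start, chr2:148045465-148045714, minus strand: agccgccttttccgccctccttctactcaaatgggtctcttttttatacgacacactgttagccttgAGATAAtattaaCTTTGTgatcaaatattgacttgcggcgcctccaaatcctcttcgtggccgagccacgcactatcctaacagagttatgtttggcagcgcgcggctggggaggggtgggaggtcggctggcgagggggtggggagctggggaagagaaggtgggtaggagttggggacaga
Foxa1, chr12:57546112-57546361, minus strand: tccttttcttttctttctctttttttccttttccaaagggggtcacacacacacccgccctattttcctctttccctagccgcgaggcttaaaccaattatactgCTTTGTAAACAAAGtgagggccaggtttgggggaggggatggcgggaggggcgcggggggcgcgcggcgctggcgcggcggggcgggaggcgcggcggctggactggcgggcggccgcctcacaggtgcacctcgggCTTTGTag
The search covered 300 bases, to 50 after the start. Forkhead factors were read as TGTTTAC and, with another base inside, as either TATTTAC in place of it or TGTTTGC in place of it. GATA factors were read as AGATAA and, with another first or last base, as either TGATAA in place of it or AGATAG in place of it. Sox factors were read as ACAAAG and, with other bases at the end, as either ACAATG in place of it or ACAATA in place of it. Pou factors were read as the octamer ATGCAAAT alone. Foxa2 has 3 starts in the table. No word was found at the outermost start or the second start. The second and the innermost windows lie inside the annotated gene. The innermost held AGATAA at -183 and ACAAAG at -171 (opposite strand) and 29 after the start. The Foxa1 window lies inside its annotated gene too, which on the minus strand begins at base 57548029. Foxa1 held TGTTTAC at -141 on the opposite strand, overlapped by ACAAAG at -145 (opposite strand) and -137, with further ACAAAG at -8 and 10 (both on the opposite strand). Foxd3 held none of these words. A position is that of the first base of the stretch as it reads along the window, with the start at 0. For a word on the opposite strand this is the last letter of the word. Among 32851 windows of this length, 11.2% held a forkhead word, 25.1% a GATA word, 34.1% a Sox word and 1.74% the octamer. A match is a description of letters and not a bound site.

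The array carries 26 forkhead genes, and the other 22 were described by the same rule, with the brightest probe set standing for a gene. Of these 22, 9 were under the limit on all arrays and 13 were tested. Limma's test over all probe sets called 0 of the 13 higher and 1 lower. Over all genes with 1 probe set each, 5.74% of 6345 rose and 5.23% fell in that test. With p unadjusted and under 0.05, 1 of the 13 was higher and 2 were lower, against 942 higher and 957 lower of the 6345. The median log2 difference was 0.28 over the 13 and 0.03 over all genes.

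Foxp1, a repressor active in heart, lung and lymphoid development, was the one that fell. The 3 XEN values, given from here on in the order IM8A1-I, IM8A1-II, XEN1-3, were 11, 22.8 and 27.6 units, against 123 units in ES cells, a log2 difference of -2.15 ± 0.43 (SE, limma adjusted p = 0.0348). The XEN values were all lower, near or under the limit. The call was lost without IM8A1-I (adjusted p = 0.0604), without IM8A1-II (0.0723), with no filter (0.0624) and with an offset at the 5th percentile (0.0504). A second probe set of Foxp1 had 9.7, 20.9 and 3.1 units in XEN and 47.6 units in ES cells, and its log2 difference of -1.50 missed the threshold (adjusted p = 0.139).

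Foxa3 (HNF3 gamma), the third member of the Foxa subfamily and a liver and gut factor, had 47.8, 81.5 and 29.1 units in XEN, against 14.5 units in ES cells. All XEN values lay above ES but spread widely, and the log2 difference of 1.25 ± 0.51 (SE) did not pass (limma adjusted p = 0.172). Without XEN1-3 it passed (adjusted p = 0.0444). Foxh1, the forkhead partner of Smad proteins in Nodal signalling, had 12.1, 18.5 and 17.3 units in XEN, against 55.2 units in ES cells. Its log2 difference of -1.32 ± 0.37 (SE) did not pass (adjusted p = 0.0764) but passed with values raised to the limit (0.00251).

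**Figure D2:**
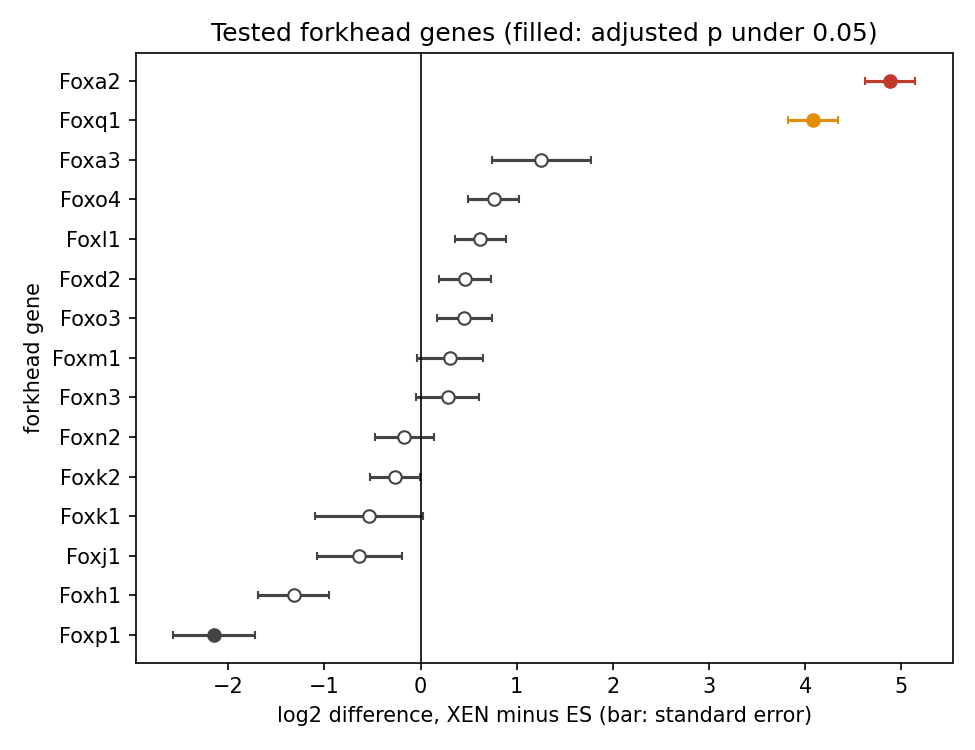
Log2 difference of XEN from ES (horizontal axis, bars are standard errors of limma's fit on 3 XEN arrays and 1 ES array) for the 15 forkhead genes that were tested, ordered by size. Filled points have an adjusted p under 0.05. Foxa2 (4.89) and Foxq1 (4.08) stand apart at the top, Foxp1 (-2.15) is at the bottom, and the other genes lie between -1.32 and 1.25 with open points.

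The remaining tested forkhead genes differed less and did not pass. Foxo4 and Foxo3 are effectors at the end of insulin and growth factor signalling. Foxo4 had 333, 296 and 318 units in XEN, against 182 units in ES cells (log2 difference 0.76, limma adjusted p = 0.121), and Foxo3 had 345, 292 and 385 units, against 244 units in ES cells (0.45, adjusted p = 0.343). Both were higher on every XEN array, an arrangement shared by 38.9% of the tested probe sets. Foxm1, which drives genes of mitosis, had 371, 354 and 545 units in XEN, against 333 units in ES cells (0.31), and a second probe set differed by 0.64 (adjusted p of 0.587 and 0.191). Foxl1 differed by 0.62, Foxd2 by 0.47, Foxn3 by 0.28, Foxn2 by -0.17, Foxk2 by -0.27, Foxk1 by -0.53 and Foxj1, the factor of motile cilia, by -0.64. The 9 genes under the limit throughout were Foxb1, Foxb2, Foxc1, Foxc2, Foxd1, Foxd4, Foxf1, Foxf2 and Foxn1. Foxd4 had 24, 19.1 and 21.5 units in XEN and 3.9 units in ES cells, apart but untested under the limit.

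The difference patterns most like those of Foxa2 and Foxq1 were sought among 7716 tested probe sets by the Euclidean distance of log2 values over the 4 arrays, each centred on its own mean. With 4 arrays such likeness mostly reflects the size of the step between ES and XEN. Nearest to Foxa2 were Epas1 (HIF-2 alpha, a hypoxia-responsive factor) at a distance of 0.104, Plat (tissue plasminogen activator) at 0.486 and F3 (tissue factor) at 0.496. Epas1 had 753, 841 and 852 units in XEN, against 18.3 units in ES cells. Nearest to Foxq1 were Sparc (a matrix glycoprotein of parietal endoderm) at 0.138, Serpinh1 (a collagen chaperone) at 0.227 and Emp2 (an epithelial membrane protein) at 0.341. Foxa2 and Foxq1 were 0.723 apart. The neighbours depended on the offset: with one at the 50th percentile those of Foxa2 were P4ha1, Epas1 and Gata4, and those of Foxq1 were S100a1, Tmed3 and Adam10.

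**Figure D3:**
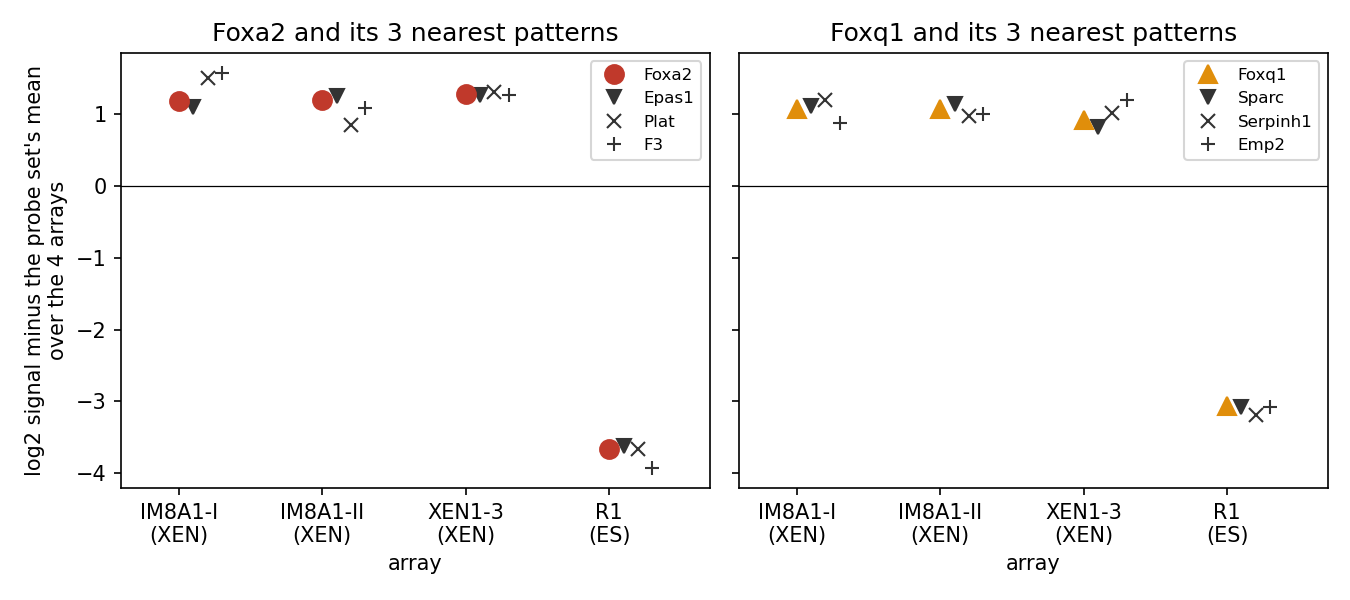
Log2 signal minus the mean of the same probe set over the 4 arrays (vertical axis) on the 3 XEN arrays and the ES array (horizontal axis) for Foxa2 with its 3 nearest patterns (left) and Foxq1 with its 3 nearest patterns (right), offset sideways so that points can be seen. In both panels the XEN points lie near 1 and the ES point of each probe set lies at or below about -3.

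Genes of the same regulatory setting were counted from lists. Of 20 listed endoderm transcription factors 15 were on the array and 11 were tested, of which limma called 4 higher and 1 lower (median log2 difference 0.95), against 5.74% higher and 5.23% lower over all 6345 genes. The number higher was 3 with values raised to the limit, an offset at the 50th percentile, no variance trend, no filter or without IM8A1-I. The 4 were Sox17, Gata4, Gata6 and Sox7, factors of primitive and extraembryonic endoderm. All 4 were also among the endoderm markers used above to check the labels, so they are not a separate result. No other tested factor of this list rose in the main comparison. Sox7 was close to the threshold (adjusted p = 0.0448). Nr5a2 fell: this orphan nuclear receptor of ES cells and liver had 14.9, 31 and 15.6 units in XEN, against 185 units in ES cells. Hnf4a, a visceral endoderm and liver factor downstream of Foxa2 in mouse endoderm, had 15.2, 37.2 and 6.3 units in XEN, against 3.7 units in ES cells, and did not pass (adjusted p = 0.375).

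Genes known as targets of FOXA proteins in liver, lung and pancreas were mostly dim in both cell types, and none passed the test. Of 33 listed, 26 were on the array, of which 14 (53.8%) were dim throughout, under the limit, against 23.1% of all 8251 genes. In the 12 tested, 0 rose and 0 fell in limma's test, where 5.74% of all genes were called higher and 5.23% lower. Over only 12 genes, 0 calls in either direction lie near those shares. With p unadjusted and under 0.05, 2 were higher and 0 lower, against 942 higher and 957 lower of all 6345 genes. The median log2 difference of the 12 was 0.51. With an offset at the 5th percentile 1 of the 12 rose. Spink1, a trypsin inhibitor, had 28.4, 57.6 and 34.1 units in XEN, against 4.9 units in ES cells (adjusted p = 0.0664), and the glucose-6-phosphatase gene G6pc had 47.5, 72.3 and 50.2 units, against 20 units in ES cells (0.0973). Transthyretin (Ttr), a carrier made by visceral endoderm and liver, was brightest in IM8A1-II, with 45.3, 161 and 54.7 units in XEN, against 20 units in ES cells (0.198). Shh, a signal made where Foxa2 acts in notochord and floor plate, had 29.2, 39.4 and 44 units in XEN, against 17.1 units in ES cells (0.204). Spink1, G6pc, Ttr and Shh each had ES under the limit and all 3 XEN values over it. That arrangement was held by 4.87% of the tested probe sets. Each of these genes entered the test only through its XEN values, some of them close to the limit. The brightest target ran the other way: Apoe, a lipid carrier, had 138, 888 and 11.6 units in XEN, against 1836 units in ES cells, a log2 difference of -3.69 ± 1.84 (SE) that did not pass (0.242). Its XEN values spread more widely than those of the other targets named, and all were lower than in ES. The number of the 26 at or above the limit was 7, 12 and 6 on the XEN arrays, against 4 in ES cells. Their summed signal was 802, 1955 and 780 units in XEN, against 2526 units in ES cells, most of the ES sum being Apoe. Albumin (Alb), Apoa1, Apob and Igfbp1 were under the limit on all arrays.

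**Figure D4:**
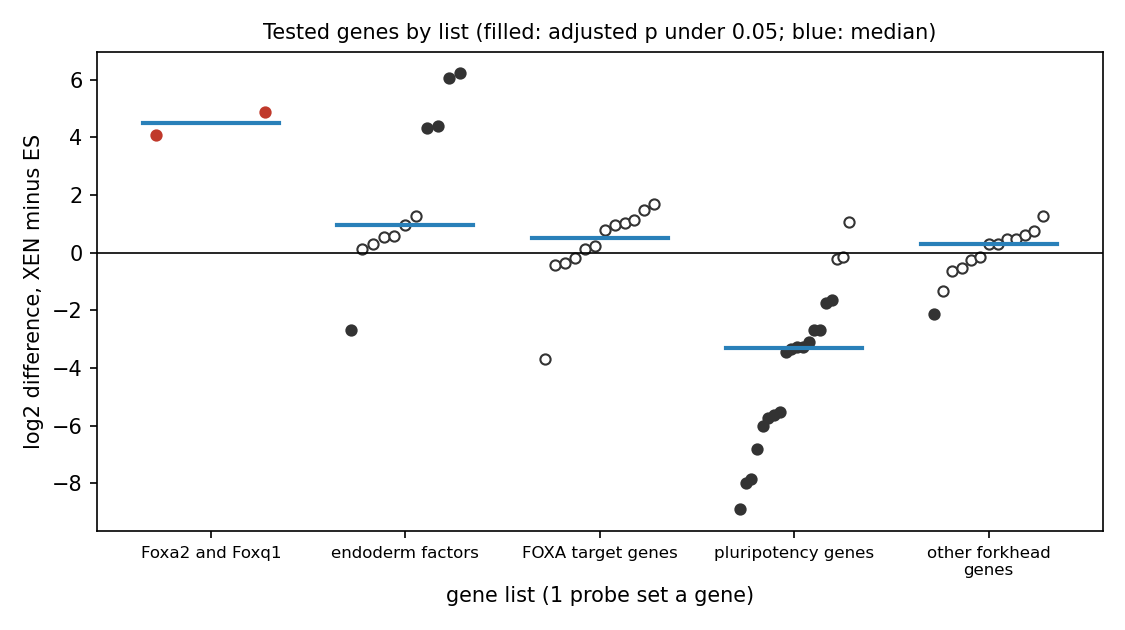
Log2 difference of XEN from ES (vertical axis) for each tested gene of 5 lists (horizontal axis), 1 point a gene and 1 probe set a gene. Filled points have an adjusted p under 0.05 and blue bars are medians. Foxa2 and Foxq1 lie with the 4 endoderm factors that rose, the 12 FOXA target genes have open points only, and 17 of 20 pluripotency genes are filled and below 0.

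Pluripotency genes, the setting in which Foxd3 is known to act, were mostly lower in XEN, and the Foxd3 probe set was under the limit in both cell types. Of 27 listed genes 21 were on the array and 20 were tested, of which 17 fell, 0 rose and 3 missed the threshold. With p unadjusted and under 0.05, 1 was higher and 17 lower, and the median log2 difference was -3.30. Over all 6345 genes 5.74% rose and 5.23% fell, and 942 were higher and 957 lower without adjustment. The smallest p in the list were those of Dppa5a, Pou5f1, Nanog, Sox2 and Utf1, all bright in ES cells and under the limit in XEN. The ES cell markers used above to check the labels, these among them, are counted again in the 17. Nodal, a ligand of the epiblast, was among the 17 with 20.8, 13.3 and 14.7 units in XEN, against 245 units in ES cells. The 3 that did not pass were Klf4, Sall4 and Tbx3. Klf4 was the 1 gene higher without adjustment, with 2009, 1176 and 1434 units in XEN, against 708 units in ES cells (log2 difference 1.07).

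Foxa2 also marks the node and definitive endoderm, and Foxd3 the neural crest, so markers of those tissues were read as well. In the node, axial and definitive endoderm list 11 genes were on the array, and 5, 6 and 5 were at or above the limit on the XEN arrays, against 4 in ES cells. Their summed signal was 1737 to 2390 units in XEN, of which Sox17 gave 1293 to 1895, and 223 units in ES cells, of which Sox17 gave 13.9. Such sums add probe sets that differ in response and are set only against the same sum on another array. Over all 6345 genes limma called 5.74% higher and 5.23% lower, and 942 higher and 957 lower with p unadjusted and under 0.05. Those values apply to each list here. Of 7 tested in the node list, 2 rose and 0 fell: Sox17, shared with extraembryonic endoderm, and the BMP antagonist Nog. Nog had 351, 121 and 263 units in XEN, against 15.6 units in ES cells. The number higher was 1 with values raised to the limit, an offset at the 50th percentile, no filter or without IM8A1-I, and 1 was lower in the first 3 of these and with no variance trend. Eomes (-1.72), Shh (0.79) and Lhx1 (-0.26) came next by p and did not pass. Gsc, Cer1, Chrd and Cxcr4 were under the limit on all arrays. Hhex and Lhx1 were over it on all arrays, and Shh and Nog on all XEN arrays. Hhex had 51.2, 71.1 and 75.3 units in XEN, against 58.5 units in ES cells. Tmprss2 was over the limit in IM8A1-II and ES cells only. In the neural crest list 0 of 11 tested genes passed in either direction (1 higher and 2 lower with p unadjusted and under 0.05), and without XEN1-3 2 were higher and 1 lower. With an offset at the 50th percentile 1 was lower. Its smallest p were those of Erbb3 (-2.20), Snai2 (-1.25), Ets1 (0.78), Msx2 (0.95) and Zic1 (1.77). The numbers of its 13 genes at or above the limit were 10, 10 and 4 in XEN and 5 in ES cells, with summed signals of 318 to 646 units in XEN and 594 units in ES cells. Fibroblast and feeder genes summed to 1065 to 1203 units in XEN and 1575 units in ES cells, with 9, 9 and 7 of 20 at or above the limit in XEN and 9 in ES cells, and 0 of 14 tested rose and 1, Thy1, fell (1 higher and 5 lower without adjustment). Without XEN1-3 1 was higher and 3 lower, and without IM8A1-I 0 were lower. Over the other alternatives 0 to 3 were lower. Prrx2, Col1a2, Tagln and Col1a1 came next by p, with only Col1a2 higher in XEN. Trophoblast genes summed to 255 to 501 units in XEN and 1139 units in ES cells, with 2, 3 and 3 of 11 at or above the limit in XEN and 7 in ES cells, and 0 of 7 tested rose and 1, Tfap2c, fell (0 higher and 3 lower without adjustment). Krt7, Eomes, Ascl2 and Plac1 came next and missed the threshold. The number lower was 4 when values were raised to the limit, and 3 with an offset at the 50th percentile, no variance trend or no filter. The part of such cells in the Foxa2 and Foxq1 values was not tested.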

How the data were processed

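Gene expression was measured on 4 Affymetrix arrays, 3 of XEN and 1 of ES cultures, grouped by the labels. The authors deposited 1 linear intensity value for each probe set and array, made with software that the sources used here do not give. Their 2% trimmed means (150.092, 150.095, 150.09 and 150.088) show that the arrays were brought to a common level before deposit. Chip type, chip lot and fluidics messages are given per the file headers of the run records.

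Each array was rescaled to the same trimmed mean, 10.5 units (the 25th percentile) were added and log2 was taken. Control probe sets were left out of the tests, as were probe sets under the limit (the 40th percentile, 27.2 units) on all arrays, which left 8587. The XEN arrays were set against the ES array in limma 3.58.1 (R 4.3.3, lmFit, eBayes with a variance trend, 2 residual and 3.76 prior degrees of freedom), two-sided, with Benjamini-Hochberg adjustment over all 8587 and a threshold of 0.05. Tested on simulated data, the fit returned the differences put in, while many of them missed the threshold. Those differences were added to the XEN values, so their return checks only the direction and scale of the fit. The simulated ES values were given the spread of the XEN arrays and no lot effect. The simulation therefore cannot check the spread assumed for the ES array or the part of the chip lot. XEN cultures were compared array against array with no test. Where ES was under the limit, a fold is the geometric mean of XEN divided by the limit.

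Symbols were those of GEO's platform annotation (10833 probe sets with 1 symbol, 8251 genes). The gene IDs of the 4 genes matched RefSeq (GRCm38.p6), which gave chromosomes and promoter windows. A promoter window was found for Foxa1, Foxa2 and Foxd3. Genes were named by rule: all probe sets of the 4 genes, other forkhead genes reaching the limit, the 5 genes with the smallest p in a list and the 3 nearest patterns. Other genes named (Foxd4 and further genes under the limit, Hnf4a, Hhex, Tmprss2, Nodal, Klf4, Sall4 and Tbx3) were chosen after their values were seen. The gene Foxred1, whose symbol begins like those of the family, is not a forkhead gene and was left out. The members and lists were chosen with earlier results of these data known. The number of arrays limits the precision. Alternatives were other offsets, values raised to the limit, other scalings, no variance trend, no filter, each line counted once and leaving out each XEN culture. Figures were drawn with matplotlib 3.10.9.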

Additional observations from a re-analysis of the deposited data

How the results depend on the processing

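Foxa2 and Foxq1 kept their direction and their call under all 11 alternatives, with log2 differences of 3.34 to 5.80 and adjusted p of 0.000329 to 0.00908 for Foxa2, and 2.71 to 4.83 and 0.000511 to 0.0103 for Foxq1. Leaving out 1 XEN culture at a time gave 4.85 to 4.91 for Foxa2 and 4.06 to 4.13 for Foxq1. The untested Foxd3 difference was 0 with values raised to the limit, -1.24 with an offset at the 5th percentile and -0.227 at the 50th. That of Foxa1 lay between -0.333 and 0.207 in all alternatives. Among the other forkhead genes the number that rose was 0, and 0 to 1 when 1 culture was left out. The number that fell was 1 in the main comparison, 2 with values raised to the limit, 0 with an offset at the 5th percentile, 0 with no filter, and 0 to 1 when 1 culture was left out. Of all probe sets 479 were higher and 433 lower. The number higher was 241 with values raised to the limit, and leaving out 1 culture gave 190 higher and 179 lower (IM8A1-I left out), 234 higher and 209 lower (IM8A1-II) or 797 higher and 725 lower (XEN1-3). The cause was not tested. The ES array could not be left out. Median scaling moved the median difference of all tested probe sets to -0.04, against 0.05 in the main comparison. No paired analysis was possible because the labels match no XEN culture to the ES culture, which is of another line.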
